A study of Danio rerio with 3 samples.

Results

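The Hox genes of zebrafish (Danio rerio) were followed through 3 single-cell RNA sequencing libraries of whole larvae. Members were taken by name: every gene symbol made of hox, a cluster letter from a to d, a paralogue number and a copy letter. Of 28216 gene symbols in the matrices, 48 met this rule. They fall into 7 clusters and 13 paralogue numbers, and each of the 48 had at least 1 UMI (unique molecular identifier, a tag that stands for 1 captured RNA molecule) in every library. No member was left out for a low level. The 32 members with at least 300 UMIs over the 3 libraries, or with the most UMIs of their number, are given with their value in each library, and the other 16, which held 13 to 291 UMIs each over the 3 libraries, are given by ranges and counts.

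The study asked which RNA is made while tissue is taken apart for single-cell work. Pools of 10 wild-type larvae at 48 hpf (hours post fertilization) were digested for 30 min at 37 °C in an enzyme mix with 10 mM 4-thiouridine (4sU), a uridine analogue that is built into new RNA, and methanol-fixed cells were exposed to iodoacetamide at 10 mM, so that a T carrying 4sU appears as C in the sequence. Cells of the first library were fixed after this step ("dissociation"). Cells of the second went through fluorescence-activated cell sorting for 10 min before fixation ("dissociation and FACS"), with 4sU also in the cooled tube that caught them. Per the paper, time on ice during setup and time for washes came in addition to these 10 min. Cells of the third were sorted in the same way and then held on ice for 30 min with no 4sU ("dissociation, FACS and ice"). Values in 3s follow this order, and the libraries are called dissociation, FACS, and FACS and ice. All 3 groups share the warm digestion and the 4sU, and no library without 4sU was analysed here. Each group had 1 library, so differences have no replicate check, no test was run, and the intervals, at the 95% level, cover only the counting error.

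Hox genes encode homeodomain transcription factors that give cells along the body axis their regional identity. They lie in clusters, and their order on the chromosome follows the order in which they are switched on from head to tail: low paralogue numbers begin in the hindbrain and pharyngeal arches, middle numbers in the neck and trunk, and high numbers in the posterior trunk and tail. The highest numbers of the a and d clusters are used a further time in the paired appendages, where they pattern the limb of tetrapods and the fin of fish. Hox proteins bind DNA together with cofactors of the Pbx and Meis families, and retinoic acid is a classical activator of the low numbers. After a whole genome duplication most zebrafish clusters exist in 2 copies, named a and b. Several of these copies have lost genes. Levels are compared here between libraries and between cell types, not between genes, since capture at the 3′ end differs from gene to gene.

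The matrices held 11043, 4609 and 9550 cells with a median of 2402, 3143 and 3995 UMIs per cell. Between libraries, 11 to 28 cell barcodes were shared per pair. Haemoglobin genes took 6.58%, 11.2% and 6.68% of all UMIs. The cell type of single cells was not analysed here. Sums of reads were used for named cell types, of which 16 had a table in any library and 12 in all of them. A type is said to lead where it had the highest rpm of these 12 shared types. Most tables had the highest sum of their own markers, and the names of 2 tables went against them. The table labelled epidermis had the epidermal keratin krt4 at 349, 60.8 and 84.1 rpm (reads of the gene in 1000000 reads of the table). It had the highest level of any table for the collagen gene col1a1b, at 1348, 2035 and 1250 rpm, and for fgl1, at 221, 250 and 213 rpm. The table labelled pharynx held krt4 at 62656, 40289 and 59077 rpm, and of the endodermal genes foxa1 was there at 0.149, 0 and 0 rpm, foxa2 at 1.04, 4.04 and 0.862 rpm and foxa3 at 0 in every library. Both are called by their labels with this reservation. The pharyngeal arch table led for 3 of its 8 markers after dissociation and for 0 after FACS, and its marker sum ranked 3 in both. The muscle table of the dissociation library led for 0 of 6, with a sum that ranked 2. No markers were set for proliferating pharyngeal arch. These names are used as given, with little backing from markers. The table labelled pectoral fins led for 6, 6 and 5 of its 7 markers. Among them, and1, an actinodin of the fin fold, stood at 1770, 2493 and 1726 rpm, whereas tbx5a, which marks the pectoral field itself, was at 6.75, 4.25 and 8.02 rpm. Actinodins are made in the median fin fold of trunk and tail as well, and by these markers paired and median fins cannot be told apart. Cells of 1 library share 1 suspension, and the cell types of a library are therefore no replicates of each other.

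All Hox genes together gave 10938, 6961 and 21877 UMIs. In CPM, UMIs of a gene in 1000000 UMIs of the library, this was 217.4, 301.4 and 357.3. The sum was lowest after dissociation alone and highest after FACS and ice. The FACS library stood at 1.39 times the dissociation library (1.35 to 1.43), and the FACS and ice library at 1.64 times (1.61 to 1.68). In these sums over whole libraries, fewer cells of a type and less RNA per cell cannot be told apart. Paralogues 1 to 4 summed to 87.7, 112 and 139 CPM, paralogues 5 to 8 to 76.7, 100.4 and 121 CPM, and paralogues 9 to 13 to 53.0, 89.5 and 97.6 CPM. The posterior sum had the largest ratio of the 3 regions in the FACS library, 1.69 (1.59 to 1.79) against 1.27 (1.21 to 1.34) for paralogues 1 to 4 and 1.31 (1.24 to 1.38) for paralogues 5 to 8. By cluster, the FACS ratio ran from 1.19 (1.099 to 1.29) for HoxBb, made of hoxb1b, hoxb5b, hoxb6b and hoxb8b, to 1.59 (1.45 to 1.75) for HoxAb, whose members are mostly posterior.

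**Figure D1:**
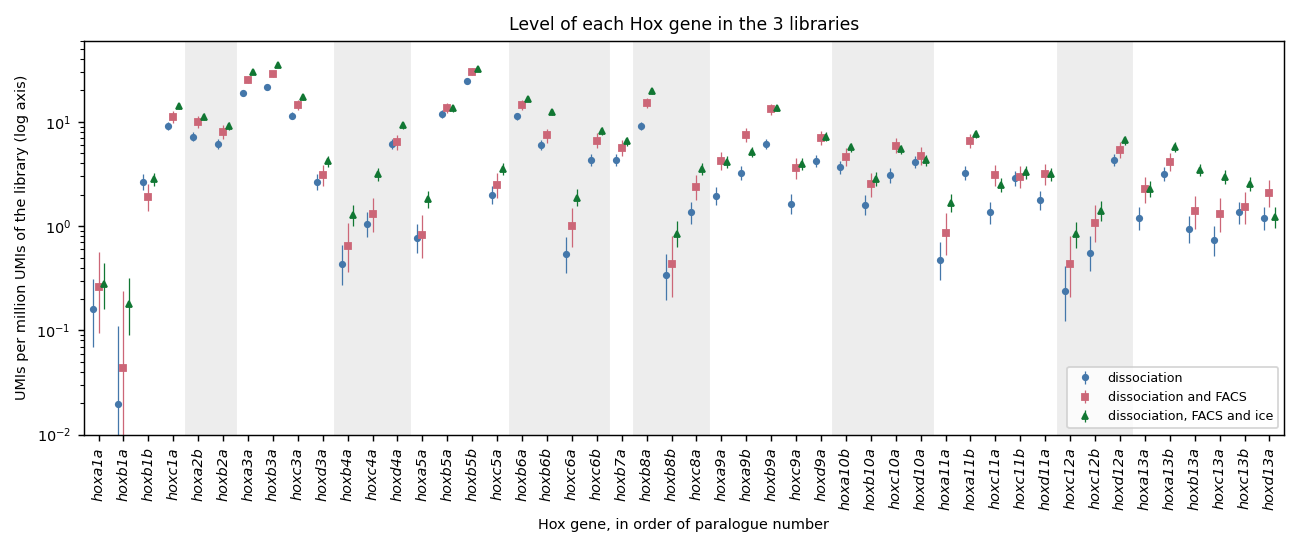
Level of each of the 48 Hox genes in CPM (log axis from 0.01 to 60) in the dissociation, FACS, and FACS and ice libraries, ordered by paralogue number, with shaded bands for the numbers. Points are single libraries and bars are 95% Poisson intervals for counting error, those of hoxb1a running off the axis; the dissociation point is the lowest of the 3 for most genes, as for hoxb9a with 6.12 CPM against 13.2 and 13.5 CPM.

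Of all cells, 29.8%, 30.5% and 38.3% held at least 1 Hox UMI. Free RNA in the suspension also gives UMIs to cells that do not express a gene. Cells with haemoglobin as at least 50% of their UMIs, red blood cells that should lack Hox RNA, held a Hox UMI in 13.96%, 7.04% and 12.2% of cases at a median of 9313, 9226 and 7910 UMIs. Their Hox level was 27.7, 13.9 and 22.8 CPM, against 232.8, 351.8 and 385.4 CPM in the other cells. Single cells among them held up to 7, 5 and 9 Hox members, and how these UMIs arose was not tested. These cells were deeper than all cells, which had a median of 2402, 3143 and 3995 UMIs. Their shares therefore do not give the size of the background in other cells. Cells with a Hox UMI had a median of 4265, 4515 and 6110 UMIs, and cells without one 2011, 2759 and 3303. With every cell thinned to 2000 UMIs and shallower cells left out (4688, 1328 and 2138 of them), the share was 23.6%, 24.4% and 29.2%. At this equal depth, the dissociation and FACS libraries differed by less than their intervals, and FACS and ice lay above both.

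Among the paralogue 1 genes, known for the identity of hindbrain segments, hoxc1a was at 9.16, 11.1 and 14.3 CPM. hoxb1b, an early hindbrain gene, was at 2.66, 1.91 and 2.81 CPM. It was the single member with at least 300 UMIs whose FACS level lay under its dissociation level, at a ratio of 0.72 with an interval of 0.50 to 1.01 that includes equal levels. hoxa1a and hoxb1a, the second a marker of the fourth hindbrain segment, had 1 to 17 UMIs in a library. As a group, paralogue 1 stood at 16.4, 21.4 and 32.2 rpm in the nervous system table and at 6.72, 6.26 and 7.08 rpm in retina, a head tissue that lies outside the Hox domain.

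The paralogue 2 genes are held by hoxa2b and hoxb2a. hoxa2b, which sets the identity of the second pharyngeal arch, was at 7.21, 9.92 and 11.2 CPM, and hoxb2a at 6.102, 8.01 and 9.18 CPM. By cell type, hoxa2b had its highest values in the tables named for the arches, names that the markers back only in part. The table for proliferating pharyngeal arch, made for the sorted libraries, held it at 61.0 and 42.3 rpm. The pharyngeal arch table of the dissociation and FACS libraries held it at 27.4 and 36.2 rpm. Among the 12 cell types found in every library, cartilage, much of which in the head forms from arch neural crest, led for hoxa2b in all 3 with 22.5, 22.4 and 24.3 rpm. Paralogue 2 in retina was at 2.40, 11.1 and 8.02 rpm.

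Paralogue 3 marks the third arch and the posterior hindbrain. Its sum was 54.7, 71.9 and 87.1 CPM, the largest UMI sum of the 13 numbers. hoxa3a, whose mouse counterpart is needed for thymus and parathyroid, was at 18.8, 25.4 and 30.4 CPM. hoxb3a was at 21.8, 28.8 and 35.3 CPM, hoxc3a at 11.5, 14.6 and 17.2 CPM, and hoxd3a at 2.66, 3.07 and 4.197 CPM. All 4 followed the order dissociation, FACS, FACS and ice. hoxb3a led in the nervous system of every library with 29.7, 59.2 and 74.0 rpm. hoxa3a was led by the nervous system in both sorted libraries and by the table labelled epidermis after dissociation. hoxc3a was highest outside the nervous system in all 3, with 24.3, 51.0 and 41.3 rpm in pectoral fins and 31.8, 39.2 and 32.3 rpm in the table labelled epidermis.

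The paralogue 4 genes, which respond to retinoic acid at the border of hindbrain and spinal cord, were thin in these data. hoxd4a was at 6.16, 6.41 and 9.28 CPM, and hoxb4a and hoxc4a had 15 to 192 UMIs in a library. The nervous system led for the number in every library, with 10.9, 12.5 and 26.2 rpm against 5.16, 0.24 and 5.78 rpm in retina. It led for paralogue 5 too, with 58.2, 87.0 and 111 rpm, beside 61.9 rpm in the muscle table that the dissociation library alone has. hoxb5b was at 24.6, 30.3 and 32.5 CPM and hoxb5a at 11.9, 13.5 and 13.4 CPM. These are copies of the gene that in mouse serves vagal neural crest and the enteric nervous system. After FACS and ice, hoxb5a was at 1.13 (1.01 to 1.26) and hoxb5b at 1.32 (1.23 to 1.42) times its dissociation level. hoxc5a was at 2.01, 2.47 and 3.56 CPM, and hoxa5a had 19 to 111 UMIs in a library. In retina, paralogue 5 stood at 9.47, 3.25 and 37.1 rpm, so that the ice library held the most there as well.

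Middle paralogues pattern the trunk. hoxb6a was at 11.3, 14.6 and 16.7 CPM, hoxb6b at 6.04, 7.40 and 12.4 CPM, and hoxc6b at 4.31, 6.62 and 8.13 CPM. The hoxb6 copies were apart after FACS and ice, where hoxb6b stood at 2.05 (1.79 to 2.35) and hoxb6a at 1.48 (1.33 to 1.64) times the dissociation level. hoxb6b stood at 10.2, 18.7 and 39.7 rpm in the nervous system, which led for it in both sorted libraries. hoxb6a was led by the table labelled epidermis in the dissociation and FACS libraries, with 21.8 and 24.8 rpm, and by the nervous system after FACS and ice, with 30.3 rpm. The arch tables held it at 20.1 and 26.8 rpm in pharyngeal arch (dissociation and FACS) and 24.5 and 25.2 rpm in proliferating pharyngeal arch (FACS, and FACS and ice). hoxc6b led in the table labelled epidermis, with 28.0, 21.6 and 23.4 rpm. hoxc6a had 23 to 115 UMIs in a library.

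Paralogue 7 is left with hoxb7a alone among the members, at 4.35, 5.63 and 6.53 CPM. Its cell types were unlike those of its neighbours: pigment cells, which come from the neural crest, held it at 23.1, 23.3 and 25.9 rpm, and pectoral fins at 15.3, 14.9 and 31.4 rpm. Retina held 1.32, 1.08 and 3.42 rpm. The pigment cell level was nearly the same in the 3 preparations, and pigment cells led in the dissociation and FACS libraries. hoxb8a was at 9.16, 15.2 and 19.6 CPM, and hoxc8a, which in mouse marks motor neurons of the forelimb level, at 1.35, 2.38 and 3.54 CPM. hoxb8b had 10 to 52 UMIs in a library. Paralogue 8 led in the table labelled epidermis, with 22.3, 31.6 and 46.1 rpm, followed among the shared types by the nervous system with 13.9, 28.3 and 41.1 rpm. The pharyngeal arch table held it at 24.1 rpm after dissociation.

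Paralogue 9 is the first of the posterior genes. In mouse this number places the posterior side of the forelimb bud. hoxa9a was at 1.95, 4.24 and 4.13 CPM, hoxb9a at 6.12, 13.2 and 13.5 CPM, and hoxc9a at 1.63, 3.59 and 3.97 CPM. hoxd9a was at 4.21, 6.97 and 7.20 CPM. These 4 were alike in the sorted libraries and lower after dissociation alone. hoxa9b had another order, 3.24, 7.45 and 5.19 CPM, with FACS and ice at 0.70 (0.58 to 0.84) of the FACS level. The sum of the number in FACS was 2.06 times that of dissociation (1.87 to 2.27). Pectoral fins held paralogue 9 at 66.2, 121 and 98.6 rpm, and the table labelled epidermis at 74.8, 104 and 92.7 rpm, so neither led in every library.

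Paralogues 10 and 11 include the genes of the middle part of the appendage and of the caudal trunk. hoxa10b was at 3.68, 4.63 and 5.70 CPM, hoxb10a at 1.61, 2.51 and 2.83 CPM, and hoxc10a at 3.06, 5.93 and 5.44 CPM. hoxd10a was nearly level at 4.11, 4.72 and 4.295 CPM. It was also less tied to 1 table, with pigment cells at 11.04, 11.8 and 16.9 rpm and pectoral fins at 8.55, 21.0 and 19.8 rpm. hoxa11b, whose tetrapod counterpart marks the forearm segment, was at 3.24, 6.58 and 7.68 CPM, hoxc11b at 2.90, 2.99 and 3.28 CPM, and hoxd11a at 1.77, 3.16 and 3.15 CPM. hoxa11a and hoxc11a had 20 to 152 UMIs in a library. Pectoral fins led both numbers in every library. There, paralogue 10 was at 83.7, 87.1 and 103 rpm and paralogue 11 at 88.7, 212 and 193 rpm, of which hoxa11b made up 36.9, 106 and 95.05 rpm. Retina held paralogue 11 at 1.56, 0.84 and 1.06 rpm.

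The last numbers serve the tail and, in the a and d clusters, the outer end of the appendage, which in zebrafish includes the fin rays. hoxd12a was at 4.31, 5.37 and 6.65 CPM and hoxa13b at 3.16, 4.16 and 5.76 CPM. The other members of numbers 12 and 13, hoxc12a, hoxc12b, hoxa13a, hoxb13a, hoxc13a, hoxc13b and hoxd13a, had 10 to 212 UMIs in a library. Paralogue 13 was the number most tied to 1 table. Pectoral fins held it at 356, 229 and 437 rpm, which was 28.2, 6.75 and 14.8 times the level of the next of the 12 shared types. The pharyngeal arch table, not a shared type, had 8.13% of its 5181 Hox reads from this number after dissociation. Its level lay above that of the next shared type there. All 6 members of the number were read in pectoral fins, and hoxd13a alone had a higher level in another shared type in 1 library. hoxa13b was at 106, 77.3 and 125 rpm, hoxa13a at 68.4, 65.9 and 69.1 rpm, and hoxb13a, whose mouse counterpart limits the length of the tail, at 65.7, 36.7 and 95.5 rpm. hoxc13a was at 36.9, 20.2 and 76.7 rpm, hoxc13b at 42.8, 10.4 and 44.6 rpm, and hoxd13a at 36.0, 18.9 and 25.5 rpm, under its 30.8 rpm in blood vessels in the FACS library. Paralogue 12 stood at 105, 64.3 and 98.8 rpm there, hoxd12a alone at 67.5, 52.9 and 62.7 rpm, and had no read in retina.

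**Figure D2:**
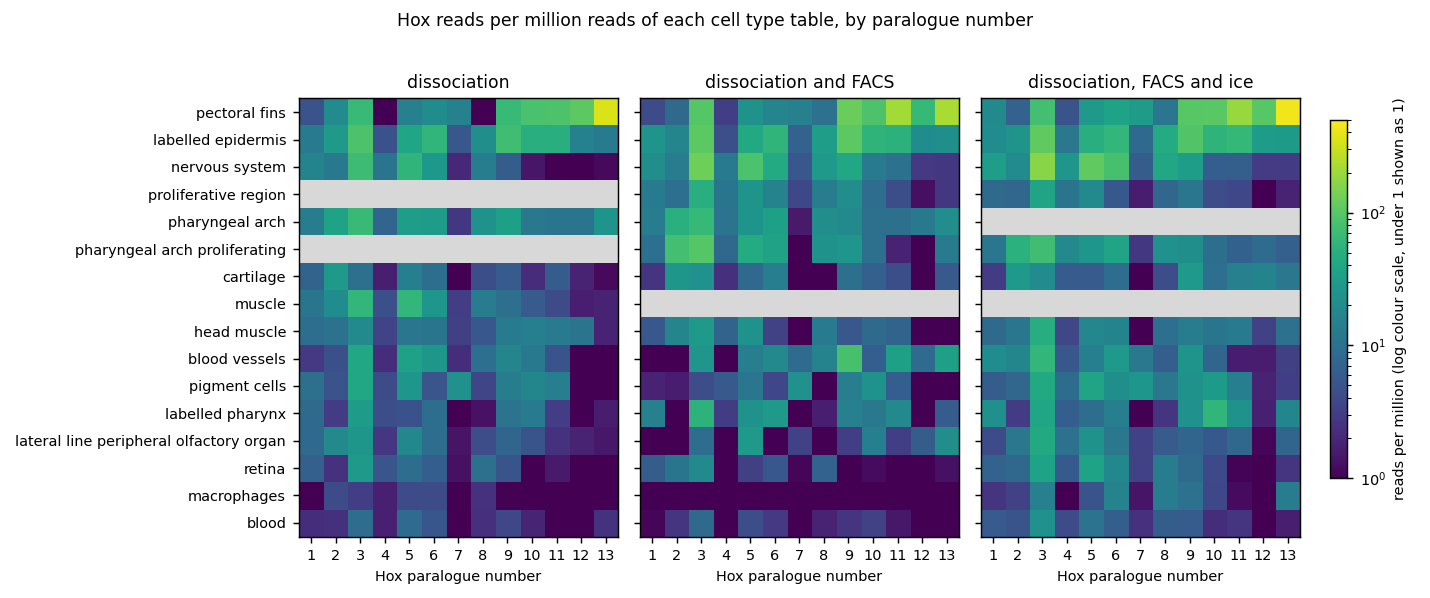
Hox level in rpm, reads in 1000000 reads of each cell type table (colour, log scale, values under 1 drawn as 1), with paralogue numbers 1 to 13 across and cell types down, 1 panel per library; grey marks a type with no table in that library. Numbers 10 to 13 stand out in pectoral fins, as for paralogue 13 with 356, 229 and 437 rpm, while numbers 4 and 5 are highest in the nervous system among the types shared by all libraries.

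Over all numbers, pectoral fins had the highest Hox level, 843, 895 and 1146 rpm. The table labelled epidermis followed with 463, 550 and 604 rpm, and the nervous system had 223, 410 and 535 rpm. In read counts, pectoral fins gave 4.94%, 6.67% and 7.40% of the Hox reads of all tables. The nervous system gave 38.1%, 37.3% and 36.7% of them. Retina had 77.6, 57.0 and 147 rpm and blood 41.9, 31.0 and 77.7 rpm, which sets the level read as background. Of the Hox reads in pectoral fins, 83.0%, 79.9% and 81.1% came from paralogues 9 to 13. In the nervous system this was 4.62%, 17.2% and 9.46%. The mean paralogue number of a Hox read was 10.5, 9.82 and 10.4 in pectoral fins and 4.40, 5.20 and 4.84 in the nervous system. Of the 48 members, 15 led in pectoral fins in all 3 libraries, all of them of numbers 9 to 13 and from the a, b, c and d clusters. The nervous system led for 6 in all 3, hoxb3a, hoxd3a, hoxc4a, hoxd4a, hoxb5a and hoxb5b, the table labelled epidermis for hoxc6a, hoxc6b and hoxc8a, and cartilage for hoxa2b. The other 23 had no constant leader. All these ranks are among the 12 shared types, and tables found in fewer libraries could lie higher, as the arch tables did for hoxa2b. Without the tables labelled epidermis and pharynx, the nervous system led for 6 numbers (1, 3, 4, 5, 6 and 8), cartilage for number 2 and pectoral fins for numbers 9 to 13 in all 3 libraries, again among shared types.

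The 3 preparations were then compared gene by gene. A member was counted as past the fold where its CPM ratio was at least 1.5 in either direction and both libraries together held at least 100 UMIs of it. Between FACS and dissociation, 36 members could be counted. Of these, 15 were higher by at least 1.5-fold, when the share among all 12161 genes counted in the same way was 6.5%, and 0 were lower, when that share was 10.4%. The median ratio was 1.32 for the members and 1.03 for all genes. By region, 0 of 9 members of paralogues 1 to 4, 3 of 9 of paralogues 5 to 8 and 12 of 18 of paralogues 9 to 13 were past the fold, with median ratios of 1.27, 1.29 and 1.76. Among the posterior genes the ratio was 2.15 for hoxb9a, 2.21 for hoxc9a, 2.03 for hoxa11b and 1.94 for hoxc10a, against 1.15 for hoxd10a.

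Between FACS and ice and dissociation, 44 members could be counted, of which 36 were higher by at least 1.5-fold (21.2% of all 13882 genes) and 0 lower (8.53%). Their median ratio was 1.77 against 1.16 for all genes. The regions were closer to each other here, with 9 of 11, 8 of 11 and 19 of 22 members past the fold and medians of 1.56, 1.89 and 1.83. The largest ratios belonged to thin members, 4.02 for hoxc13a and 3.71 for hoxb13a, and the smallest to hoxd10a at 1.04, hoxd13a at 1.03 and hoxb1b at 1.05. Between the 2 sorted libraries, FACS and ice over FACS, 8 of 43 members were higher (14.5% of all 12944 genes) and 1 was lower, hoxd13a at 0.59 (2.15% of all genes). The comparisons share libraries, so their counts are not independent of each other.

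**Figure D3:**
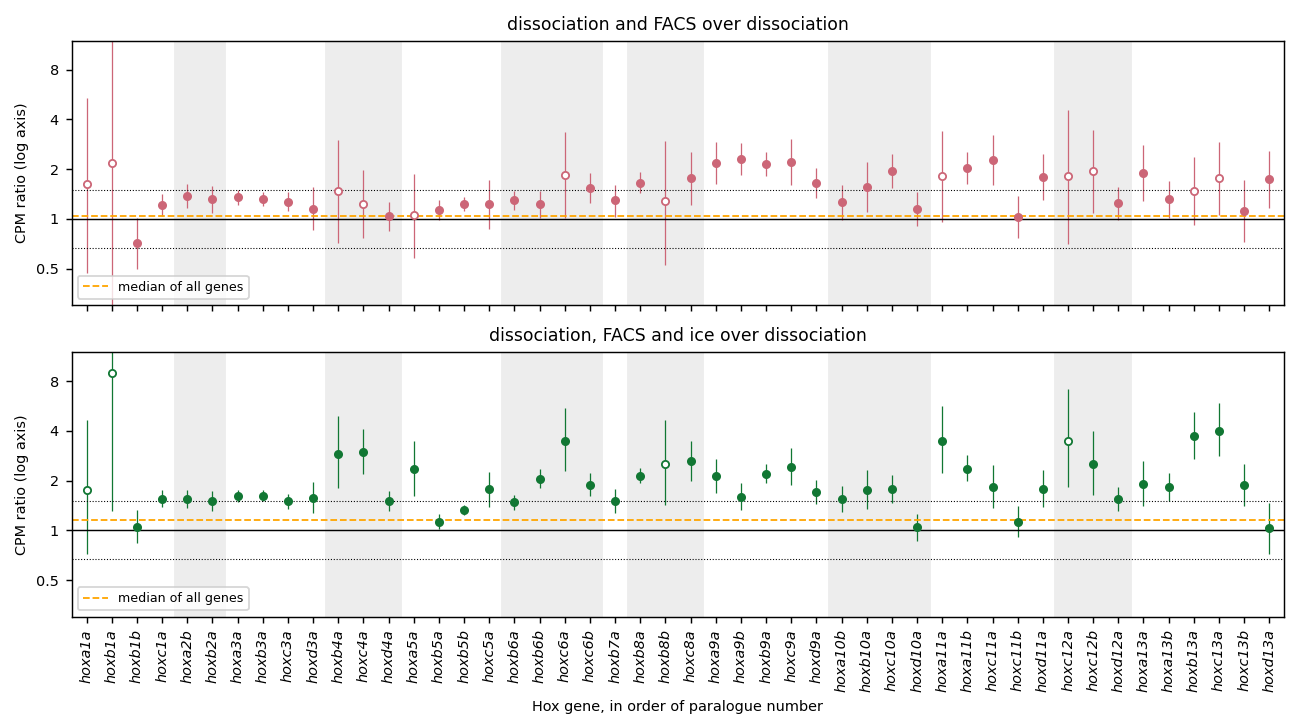
CPM ratio to the dissociation library (log axis from 0.3 to 12) for each of the 48 Hox genes, FACS on 1 panel and FACS and ice on the other, in the order of paralogue numbers with bars for 95% counting intervals, that of hoxb1a running off the axis. Dotted lines mark 1.5-fold, the dashed orange line the median of all genes, and open circles members with under 100 UMIs; in the FACS panel 12 of 18 countable members of paralogues 9 to 13 and 0 of 9 of paralogues 1 to 4 lie above the upper line.

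The makeup of the libraries differed along with these ratios. Pectoral fins made up 1.143%, 1.87% and 2.07% of the reads of all tables and the table labelled epidermis 7.78%, 10.1% and 14.1%, so both Hox-rich tables were larger in the sorted libraries. The nervous system made up 33.3%, 22.8% and 22.02%. The share of a table in its library does not enter the rpm values of that table. The cells inside a table can still differ between libraries, and free RNA of the suspension can enter any table. Tables for the proliferative region and for proliferating pharyngeal arch were made for the sorted libraries alone. Inside the tables, the Hox level of FACS lay above that of dissociation in 6 of the 12 shared types, with a median ratio of 1.00. With each of the 12 types weighted equally the mean level was 1.15 times higher. For FACS and ice the ratio was above 1 in 12 of 12 types, with a median of 1.58 and a range from 1.29 to 4.07, the last in macrophages. Retina and blood, which set the level read as background, are among these 12 types. Their ratios were larger than those of pectoral fins and of the table labelled epidermis. Haemoglobin-rich cells went the other way, with a Hox level of 27.7 CPM after dissociation and 22.8 CPM after FACS and ice. How much of the rise inside tables is background RNA was not tested. In the nervous system the FACS level was 1.84 times that of dissociation, and its paralogues 9 to 13 stood at 10.3 rpm after dissociation, 70.7 rpm after FACS and 50.6 rpm after FACS and ice. Pectoral fins were at 700, 714 and 930 rpm for the same numbers, a FACS level close to that of dissociation. For neuronal cells, the paper reports more mitochondrial reads without sorting and proposes that sorting depleted cells of low quality. Whether this bears on the Hox level of the nervous system was not tested. How far the changed makeup accounts for the library ratios was not tested.

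Cells that held more than 1 Hox gene show which numbers are read together. At least 2 members were found in 1597, 875 and 2345 cells, and up to 16, 18 and 22 members in 1 cell. Pairs of paralogue numbers were counted in the same cell and set against the number given by the product of their shares, summed over 10 bins of UMIs per cell of equal cell number, since deep cells hold more of everything. Neighbouring numbers met 3.42, 4.303 and 3.13 times as often as that product, numbers 2 or 3 apart 2.94, 3.67 and 2.83 times, numbers 4 to 7 apart 2.07, 2.73 and 2.06 times, and numbers 8 or more apart 1.298, 1.59 and 1.32 times. The ratio was thus smaller the farther apart the numbers were, in each of the 3 libraries. For all 12 neighbouring pairs it was above 1 in each library, but so it was for 72, 72 and 73 of all 78 pairs. A ratio above 1 is therefore not particular to neighbours. Depth still varies inside a bin, so the values give an order better than a size.

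Numbers 12 and 13 had the highest ratio of all pairs in the dissociation and FACS libraries. They were found together in 56, 40 and 131 of the 148, 95 and 273 cells with number 12. This was 10.2 (7.70 to 13.2), 12.2 and 8.11 times the product. Numbers 11 and 12 met 8.26, 11.7 and 8.32 times and numbers 7 and 8 5.72, 8.04 and 5.67 times as often. Rare numbers can reach a higher ratio than common ones. Numbers 3 and 4 met in 176, 111 and 440 of the 315, 154 and 583 cells with number 4, at ratios of 2.71, 3.54 and 2.55. At the anterior end of the series the ratio was 2.24, 2.39 and 1.69 for numbers 1 and 2, while numbers 1 and 5 reached 3.91, 5.20 and 4.03. At the other end of the scale, numbers 2 and 13 gave 0.77, 1.07 and 0.67, the last with an interval of 0.45 to 0.96. Paralogues 1 to 4 met paralogues 9 to 13 1.503, 2.04 and 1.56 times as often as the product, less than they met paralogues 5 to 8 (2.04, 2.65 and 2.00). For single members found in at least 100 cells, pairs of the same number reached 3.52, 3.91 and 3.95, pairs of the same cluster 3.55, 3.60 and 3.27, and pairs that shared neither 2.64, 3.38 and 2.57. This minimum left 25, 16 and 35 members, with 19, 9 and 39 pairs of the same number. The pairs behind these values thus differ between libraries.

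**Figure D4:**
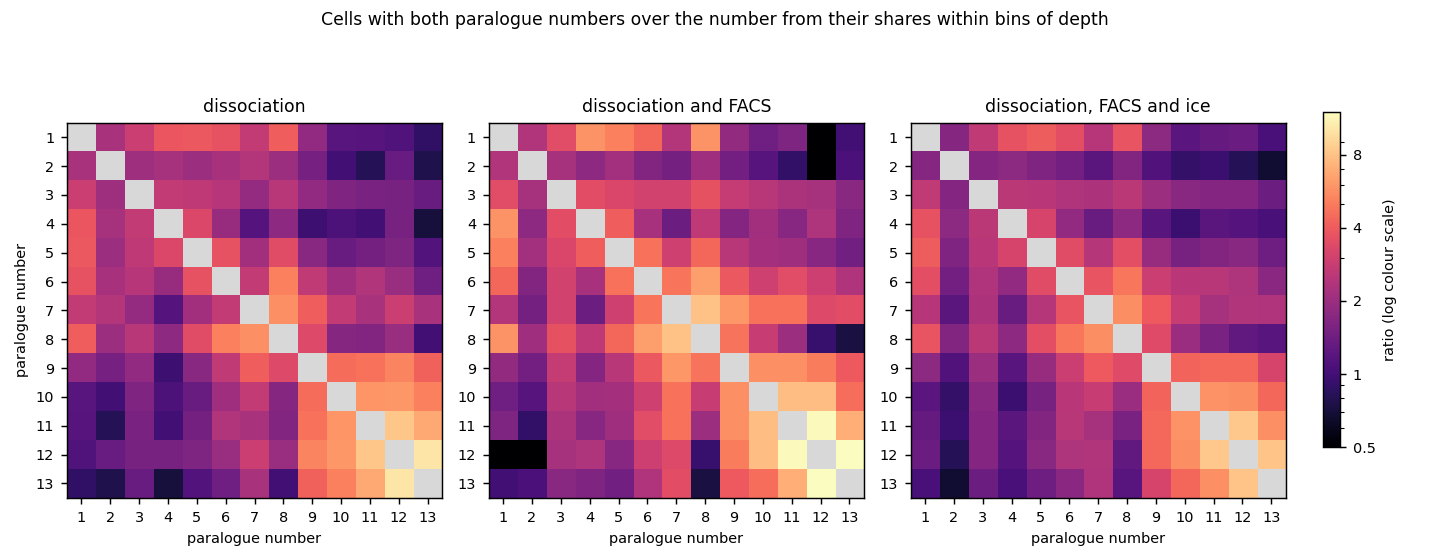
Observed over expected number of cells with both of 2 Hox paralogue numbers (colour, log scale from 0.5 to 12, values outside drawn at the ends), numbers 1 to 13 on both axes, 1 panel per library and a grey diagonal. The highest values lie beside the diagonal at numbers 11 to 13, as for 12 and 13 with 10.2, 12.2 and 8.11, and the lowest in the corner where low meets high, as for 2 and 13 with 0.77, 1.07 and 0.67.

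The 4sU label marks RNA made from the start of digestion. A gene was taken as labelled in a cell where at least 1 of its UMIs carried 2 or more T-to-C substitutions, and the share of labelled cells was taken over the cells with the gene. Added over all Hox genes, 137 of 7857, 91 of 4497 and 399 of 13117 such pairs of gene and cell were labelled, which is 1.74% (1.47 to 2.06), 2.02% (1.63 to 2.48) and 3.04% (2.75 to 3.35). All genes had 2.75%, 3.64% and 4.08%, and genes with under 1.3 UMIs per cell, which are closer to the Hox genes in depth, 2.16%, 2.75% and 3.06%. By this measure the Hox genes were labelled less than all genes in each library, and in the FACS and ice library they were level with the genes of few UMIs. In that library, 11 of the 44 members found in at least 50 cells had under 1.3 UMIs per cell. Counted as labelled entries of the cell type tables in 100 UMIs of all cells, the Hox genes had 1.12, 0.99 and 1.64. The genes of few UMIs had 1.725, 1.925 and 2.38, so by this count the Hox genes were lower in each library. Paralogues 1 to 4 had 2.02%, 2.97% and 3.93%, paralogues 5 to 8 1.82%, 1.31% and 2.59%, and paralogues 9 to 13 1.19%, 1.49% and 2.21%. The anterior share was the highest in each library, but its interval overlapped those of both other regions in the dissociation library and that of paralogues 9 to 13 in the FACS library. Without hoxd3a, hoxd4a and hoxc6b, a choice made after their values were seen, paralogues 1 to 4 had 1.104%, 1.87% and 2.67%, paralogues 5 to 8 0.73%, 0.76% and 1.79%, and paralogues 9 to 13 as before. The anterior share was then under the posterior one in the dissociation library, so that its place there rested on these genes.

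Over all Hox reads of the tables, the T-to-C rate was 0.193%, 0.195% and 0.257% and the A-to-G rate, its partner on the other strand, 0.0971%, 0.0930% and 0.102%. In all genes T-to-C was 0.279%, 0.303% and 0.331% and A-to-G 0.185%, 0.190% and 0.190%. The excess of T-to-C was thus present in the Hox genes and largest in the ice library. T-to-C over A-to-G was 1.99, 2.09 and 2.53 in the Hox genes and 1.51, 1.59 and 1.74 in all genes. By this ratio the Hox genes lay above all genes in each library, the reverse of their order in labelled shares. C-to-T, with 0.310%, 0.290% and 0.278%, was the highest of the 12 substitution types of the Hox reads in each library, so the T-to-C rate of these genes does not stand above every other type.

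Of the members found in at least 50 cells, 3 of 34, 3 of 28 and 5 of 44 were labelled in at least 5% of their cells, beside 11.4%, 15.9% and 19.9% of all genes. Among genes with under 1.3 UMIs per cell these were 2 of 18, 2 of 6 and 1 of 11 members beside 11.3%, 15.7% and 19.5% of genes. With all genes as background the counts are under it, among genes of few UMIs they are as few as 1 or 2, and they are no result about the members as a group. hoxd3a, hoxd4a and hoxc6b were the members past 5% in all 3 libraries, and hoxc11b and hoxc13b were counted after FACS and ice alone. hoxc13b was also labelled in 6 of 45 cells (13.3%) after dissociation, under the minimum of 50 cells. hoxd3a was labelled in 14.2%, 11.3% and 14.2% of 120, 62 and 226 cells. Its T-to-C rate was 2.45%, 1.24% and 1.89% and its next highest type, A-to-C, 0.753%, 0.410% and 0.718%. Of the 3 members, hoxd3a alone had T-to-C as its highest type in every library.

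For hoxd4a the labelled share was 6.92%, 13.4% and 13.1%, but its T-to-C rate of 0.268%, 0.767% and 0.644% lay under another type in each library, A-to-T at 0.630% in the first and G-to-A at 0.902% and 0.720% in the others. hoxc6b had 17.6%, 7.14% and 10.8% of its cells labelled, with T-to-C at 1.08%, 0.846% and 0.933% and G-to-A at 1.64%, 1.68% and 1.80%. In hoxc13b, 22 of 95 cells (23.2%) were labelled after FACS and ice, at a T-to-C rate of 1.09% under a C-to-T rate of 1.68%. Whether bases in which these larvae differ from the reference genome entered the labelled shares was not tested. hoxc11b, labelled in 11.6% of 129 cells after FACS and ice, had T-to-C and A-to-C nearly equal at 0.509% and 0.505%. At the other end, hoxb7a was labelled in 0 of 169, 0 of 95 and 0 of 270 cells, which at 3 counts of the total allows shares of up to 1.78%, 3.16% and 1.11%.

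**Figure D5:**
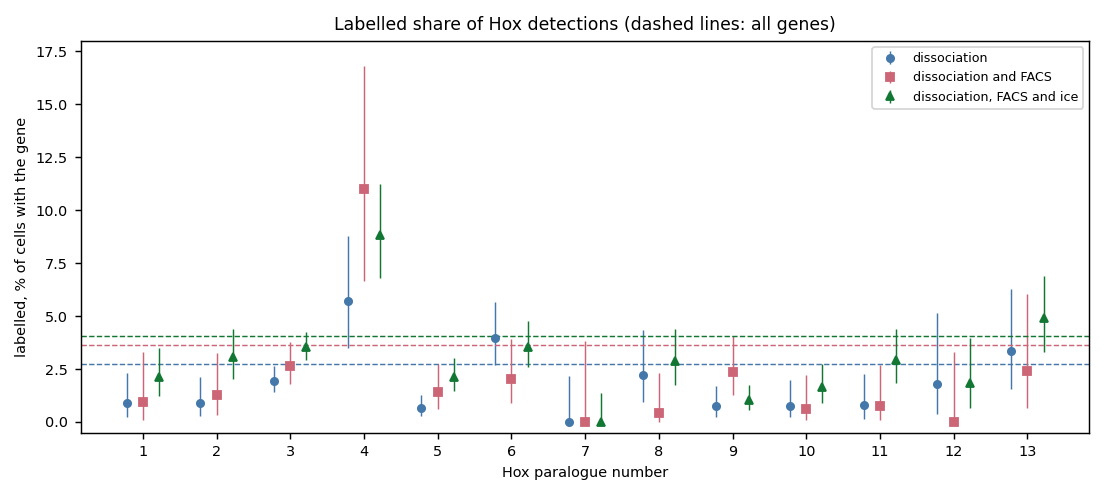
Percentage of cells with a Hox gene in which it was labelled, by paralogue number and library, with 95% Clopper-Pearson intervals; dashed lines give the share over all genes of that library (2.75%, 3.64% and 4.08%). Paralogue 4 is the highest number in each library with 5.72%, 10.98% and 8.83%, and paralogue 7, which is hoxb7a alone, has no labelled cell. The place of paralogue 4 rests on hoxd4a, which gave 18 of its 19, 16 of its 18 and 55 of its 59 labelled pairs. In hoxd4a another substitution type lay above T-to-C in each library.

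A list of 40 genes that act with or on the Hox genes was taken beside them, made up of Pbx, Meis and Pknox cofactors, upstream regulators, enzymes and receptors of retinoic acid, and chromatin proteins that hold Hox genes on or off. In FACS over dissociation 5 of 29 countable genes of the list were at least 1.5-fold higher and 0 lower, and in FACS and ice over dissociation 12 of 30 were higher and 1 lower, beside the shares of all genes above. Of the 5 with the most UMIs, the cofactor genes pbx4, with 71.2, 90.1 and 100.8 CPM, and pbx1a, with 63.5, 79.4 and 108.6 CPM, had the order of the Hox sum, as had the other 3. The partner gene meis1b was at 60.8, 68.3 and 92.3 CPM, meis2b at 61.9, 64.3 and 71.4 CPM, and pbx3b, nearly level, at 59.98, 60.9 and 63.9 CPM. All 5 had their highest level in the nervous system among the types found in every library. gdf11, a signal that in vertebrates sets the onset of posterior Hox genes, was 1.78 and 2.79 times its dissociation level in FACS and in FACS and ice.

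The other genes counted as higher in both sorted libraries were the receptor gene rarga (1.69 and 2.60), the cofactor genes pbx1b (1.95 and 2.87) and meis3 (1.86 and 2.43), and cbx7a, of a complex that keeps Hox genes silent (2.69 and 5.82). Further genes had ratios above 1.5 in both but too few UMIs in the dissociation and FACS libraries to be counted there. Among these, rxraa had 2.11 (1.26 to 3.54) and 2.74. The FACS intervals of rargb, at 1.63 (0.78 to 3.36) and 3.08, and of pbx3a, at 1.52 (0.75 to 2.996) and 1.68, included equal levels. rxrab, with 18 UMIs in all, had 2.90 and 3.01. The 1 gene counted as lower in FACS and ice over dissociation was gbx2, at 0.62 (0.51 to 0.75). Its FACS ratio was 0.80 (0.63 to 1.02). Lower as well, but with too few UMIs to be counted, were egr2b and cdx4. egr2b, a hindbrain gene upstream of paralogue 2, was at 0.26 and 0.35 with 33, 4 and 14 UMIs. cdx4 had 3, 0 and 1 UMIs, and no fold is given for it. In labelling the list as a whole had 1.97%, 3.58% and 4.91% of its pairs of gene and cell labelled, above the Hox genes in each library. In the dissociation library the intervals overlapped, with 1.77 to 2.17 for the list and 1.47 to 2.06 for the Hox genes. cbx7a was labelled in 10.3%, 25.2% and 33.5% of 78, 103 and 507 cells, and gave 170 of the 1289 labelled pairs of the list after FACS and ice. meis1b reached 4.39%, 8.03% and 8.32%.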

How the data were processed

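Libraries of whole 48 hpf zebrafish larvae were made by a droplet method that reads the 3′ end of RNA, 1 library per group, and grouped by the treatment named in the sample labels. Per the study's methods and processing notes the authors used bcl2fastq 2.19, Cell Ranger 6.1.1 with the GRCz10 build, and SAMtools 1.14. The authors deposited, as raw UMI counts per gene and cell, a matrix for each library, a list of labelled genes per cell, and read counts per gene and cell type. The deposited rate of each substitution type per gene and cell type is a ratio of substitutions to reference bases, made by the authors before deposit. No filter for sequence variants is stated for these single-cell tables.

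Values were computed with Python 3.11.15, pandas 2.3.3, numpy 2.4.6 and scipy 1.17.1, and drawn with matplotlib 3.10.9. All cells of the matrices entered, with no further filter. No doublet caller was run, and leaving out the 5% of cells with most UMIs was tried in its place. UMIs of identifiers with the same symbol were added. Names in the cell type tables that join a Hox gene with another gene were left out of the members. CPM and rpm used all UMIs or reads of a library or table, 50313576, 23095410 and 61231163 UMIs in all, and 194320645, 201080932 and 204640932 reads. Intervals at the 95% level were exact Poisson for UMI sums and joint cells, Clopper-Pearson for shares, and conditional exact binomial for CPM ratios. Reads are PCR copies, so rpm values carry no interval. A ratio needed 100 UMIs in both libraries together, and a labelled call 50 cells with the gene and 5% of them labelled. Substitution rates of several genes were averaged with reads as weights. Each member was given in every library where it had 300 UMIs over the 3 libraries or the most UMIs of its number. Of the list of 40 cofactors and regulators, the 5 with the most UMIs and those past 1.5-fold in both sorted libraries were named. The 1 gene counted as lower was named as well. The members, the lists and the thresholds were chosen with earlier results of these data known. The scripts were tested on simulated data.

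Alternatives were totals without haemoglobin and mitochondrial genes, shares of cells with and without thinning to 2000 UMIs, minimums of 20 or 300 UMIs and of 20 cells, no bins of depth, leaving out the top member, and, chosen after the data were seen, equal weights for cell types, leaving out haemoglobin-rich cells, leaving out the tables labelled epidermis and pharynx, and leaving out members by their substitution types. Sequences and genome positions of the members were not used here.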

Additional observations from a re-analysis of the deposited data

Results flagged for a closer look

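The FACS library did not differ from the dissociation library in 1 direction across cell types. The Hox level, in rpm, was 1.97 times that of dissociation in the table labelled pharynx, 1.84 times in the nervous system and 1.55 times in blood vessels, but 0.59 times in pigment cells and 0.0895 times in macrophages. The macrophage levels were 21.7 and 1.94 rpm, below or near those of retina and blood, where Hox RNA should be lacking. These differences between cell types were not tested, since each type had 1 table per library.

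In the FACS library the per-cell list also covered 1182743 barcodes outside the list of cells. They held 1433 pairs of a Hox gene and a barcode, which is 26.0 in 100000 gene detections against 101 in the cells of that library, and 43 of the 48 members were seen. Paralogues 1 to 4, 5 to 8 and 9 to 13 made up 39.8%, 33.3% and 26.9% of these pairs, close to the 39.7%, 29.0% and 31.3% in cells.

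Names that join a Hox gene with another gene took 244, 188 and 424 reads of the cell type tables, or 0.64%, 0.37% and 0.64% of all reads of Hox and joined names. For hoxb1a, which overlaps hoxb3a in these names, the joined name held 8, 10 and 103 reads and hoxb1a alone 3, 1 and 37, so its level is uncertain. The name that joins hoxd4a and hoxd3a held 144, 73 and 165 reads, and the name that joins hoxa5a and hoxa3a 67, 42 and 91.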

How the results depend on the processing

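Of 104 alternatives computed for 40 results, 53 stayed within the interval of the value given or within 1.5 times of a count. No ratio of levels, of shares of cells with a Hox UMI or of joint cells turned its direction. The order of the dissociation and FACS libraries in labelling did turn. Their labelled shares were 1.74% and 2.02%, and their labelled entries in 100 UMIs 1.12 and 0.99. The entries are those of the cell type tables, whereas the UMIs are those of all cells. Whether this accounts for the turn was not tested. The order of regions in labelling did turn in the dissociation library without hoxd3a, hoxd4a and hoxc6b, where paralogues 1 to 4 had 1.104% and paralogues 9 to 13 1.19%. No paired analysis was possible because each group had 1 library, and for the same reason no library could be left out in turn.

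For the sum of all Hox genes, FACS over dissociation, the ratio was 1.44 without haemoglobin and mitochondrial genes in the total, 1.51 without haemoglobin-rich cells, 1.15 with the 12 cell types weighted equally, and for the share of cells with a Hox UMI 1.02 for all cells and 1.03 after thinning. The sum for FACS and ice over dissociation was 1.58 without the 5% of cells with most UMIs, 1.55 with cell types weighted equally, and for shares of cells 1.29 and, thinned, 1.24. The posterior ratio, FACS over dissociation, was 1.253 with cell types weighted equally and 1.85 without the cells with most UMIs. A minimum of 300 UMIs left 6 and 22 members at least 1.5-fold higher, since fewer members could be counted. The nervous system led 1 paralogue number without the top member of each number and 6 without the tables labelled epidermis and pharynx.

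Without bins of depth, neighbouring numbers met 5.24, 5.39 and 4.31 times and numbers 8 or more apart 2.20, 2.05 and 1.91 times as often as the product, and without the cells with most UMIs neighbouring numbers met 3.91 times (dissociation) and 3.45 times (FACS and ice) as often. In place of the labelled share, labelled entries in 100 UMIs were 1.12, 0.99 and 1.64, beside 1.725, 1.925 and 2.38 in genes of few UMIs. Without the member with most labelled cells the share was 1.42% (dissociation, without hoxc6b) and 2.71% (FACS and ice, without hoxd4a). Without members in which another substitution type reached T-to-C, 1, 1 and 2 members were labelled in at least 5% of cells, and among genes of few UMIs 1 after FACS and ice. The cause of the other changes was not tested. With 1 library per group, no difference between preparations can be told apart from a difference between 2 pools of larvae or 2 runs.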
